A study of Homo sapiens with 8 samples.

Results

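The results describe what 24 h without glucose did to the transcriptome of HCT116 cells that expressed a control shRNA. HCT116 is an established human colorectal carcinoma line with epithelial features, and the control shRNA is a short hairpin RNA that serves as the reference for the hairpins against MAPKAPK2 in the same series. All 4 libraries compared come from such control shRNA cells in DMEM medium: 2 from cells at 20 mM glucose and 2 from cells at 0 mM, each kept for 24 h; they are called the fed and the starved libraries where that reads more plainly. The series holds 8 libraries, and the other 4, from cells with MAPKAPK2 hairpins, enter only alternative fits. Genes were taken when their level reached 1 FPKM (fragments scaled by exon length and by library size) in at least 2 of the 4 libraries, which kept 14506 of 58735 annotated genes, 11016 of them protein-coding. A gene absent from one condition can pass this filter through the other, as 259 genes did through the 0 mM libraries alone and 178 through the 20 mM libraries alone. The sources used here do not give whether the cells were a clone or a pool, nor which promoter drove the hairpin. Whether replicates were separate cultures is not stated, so the p-values refer to the spread between these libraries alone, and that spread may be technical.

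Glucose feeds glycolysis, the pentose phosphate pathway and the hexosamine pathway, which makes the sugar donors for protein glycosylation in the endoplasmic reticulum (ER). When glycosylation or amino acid supply falters, kinases that phosphorylate the translation factor eIF2 switch on the integrated stress response: general translation slows while the transcription factor ATF4 is made and induces genes of amino acid uptake, redox balance and cell death. The ER has its own sensors, which induce chaperones such as BiP, and the glucose sensor MondoA with its partner MLX turns on the arrestin genes TXNIP and ARRDC4 when glucose-6-phosphate is plentiful. Cells short of nutrients also leave the cell cycle, and genes for DNA replication (driven by E2F factors) and for mitosis (repressed by the DREAM complex) then decline together.

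Reads in genes numbered 15401116 to 19975449 per library, and 6.83% to 8.72% of them came from mitochondrial DNA. Across genes, replicates correlated with a Pearson r of 0.973 at 20 mM and 0.964 at 0 mM; genes are not independent replicates. The 0 mM pair was the less alike: the median difference between replicates on the log2(FPKM + 1) scale was 0.17, against 0.12 in the 20 mM pair, and the median change of a gene with glucose was 0.13 in size. Over 10 colon epithelial markers the summed level was 1514 to 1778 FPKM; 7 of them passed the filter, VIL1 and LGALS4 were below 0.3 FPKM and CDX1 had 0 reads throughout. Of 7 fibroblast markers COL1A2, DCN and LUM had 0 reads, and their sum of 6.38 to 7.37 FPKM was nearly all COL1A1. The summed markers of endothelial cells, leukocytes and erythroid cells were each at 0.12 to 0.80 FPKM, with CDH5 and HBB at 0 reads. MAPKAPK2 (ENSG00000162889, chromosome 1, 206684944 to 206734283), the target of the hairpins in the other libraries, stood at 16.4 and 16.2 FPKM with glucose and at 17.9 and 18.9 FPKM without it. Its log2 fold change of 0.17 did not pass the test (read-based limma adjusted p = 0.568).

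Far more genes shifted a little than shifted much. The planned test, limma on log2(FPKM + 1) over all 14506 genes, called 0 genes (0%), with a lowest adjusted p of 0.216 and 1599 genes at an unadjusted p under 0.05, where chance gives 725. Reads recovered from the FPKM values and fitted with limma voom, called the read-based fit here, gave 156 genes (1.08%) at an adjusted p under 0.05, 105 higher without glucose (0.724%) and 51 lower (0.352%), and 1870 genes at an unadjusted p under 0.05. When the planned test was confined to protein-coding genes it also called 156 genes (1.42% of 11016), 93 higher (0.844%) and 63 lower (0.572%), of which 113, or 72.4% of either set, were shared, all with the same sign. The read-based calls carry the gene descriptions below, and "rose" and "fell" are used for them alone. For all 156 both libraries of one condition stood above both of the other, so their sign could hardly differ between fits of these libraries. The same separation held for 2850 genes that were higher (19.6%) and 3342 that were lower (23.0%) over the whole table. The called rises had a median log2 fold change of 0.63 and the called falls of −0.53, beside a median of −0.02 over all genes; 12 rises exceeded 1 and 4 falls exceeded −1 in size.

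**Figure D1:**
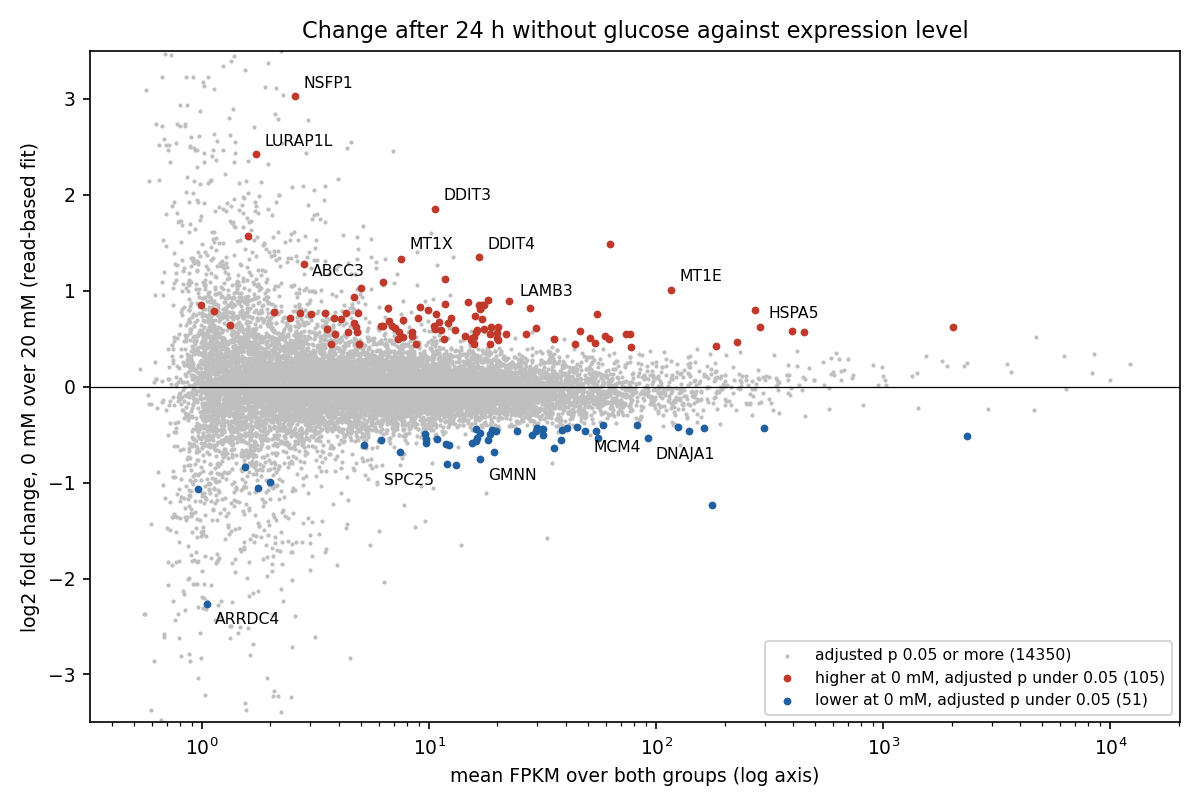
Each point is 1 of 14506 genes, with its mean FPKM over both conditions on a log axis and its read-based log2 fold change, 0 mM over 20 mM. Red points are the 105 genes that rose and blue points the 51 that fell; 12 grey genes lie beyond the axis limit of 3.5, and most called changes sit below 1 in size.

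The count of calls rested on single libraries. It was 44 without the first and 37 without the second 20 mM library, but 596 without the first and 681 without the second 0 mM library, where the lone 0 mM library is assumed to vary like the 20 mM pair. A total of 24 genes were called in all 4 of these fits: the stress genes DDIT3, DDIT4, TRIB3, STC2, HERPUD1 and HSPA5, the metallothioneins MT1E, MT1X and MT2A, the epithelial genes LAMB3, KRT7, KRT80 and AHNAK2, the transporters SLC2A3 and ABCC3, UPP1, ARTN, DBP, NDRG1, C1orf116, the non-coding AC004057.1, the pseudogenes NSFP1 and GTF2IP1, and ARRDC4. All of them rose except ARRDC4. NSFP1 passed the filter through the 0 mM libraries alone and ARRDC4 through the 20 mM libraries alone, so the filter fixed the direction of both. A further 18 of the 156 were called in 3 of the 4 fits, 97 in 2 and 17 in 1. With the 4 MAPKAPK2 hairpin libraries added to the fit, 26 genes were called, all of them among the 156.

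Of the genes of the integrated stress response that passed the filter, 7 of 35 rose, where 0.724% of all tested genes rose. DDIT3 and DDIT4 were among the 7. DDIT3 encodes CHOP, a transcription factor that promotes death of stressed cells; the gene (ENSG00000175197) lies on the minus strand of chromosome 12 from 57516588 to 57521737. Its level was 3.66 and 5.67 FPKM with glucose, from 80 and 132 reads, and 17.8 and 15.4 FPKM without it, from 482 and 310 reads. Both starved libraries lay well above both fed ones, and the log2 fold change was 1.86 (SE 0.22, read-based limma adjusted p = 7.66e-06). DDIT4 encodes REDD1, an inhibitor of the growth kinase complex mTORC1. It went from 10.2 and 8.57 to 24.9 and 22.6 FPKM, again without overlap, a log2 fold change of 1.35 (SE 0.14, read-based limma adjusted p = 1.72e-06). A part of the exon bases of each lies under another gene on the opposite strand, 39.6% for DDIT3 (mainly MARS) and 41.2% for DDIT4 (DDIT4-AS1), and the sources used here do not give whether the counting used strand. MARS, the methionyl-tRNA synthetase gene, stood at 35.2, 34.8, 36.3 and 35.4 FPKM in the 4 libraries, a log2 fold change of 0.03. In bulk RNA such as this, a change in the number of cells that express a gene and a change in the RNA per cell cannot be told apart.

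Of 42 listed regulators and targets of this response, 35 passed the filter, 29 of them higher without glucose and 6 lower. Among them 7 rose and 0 fell, where 0.724% of all tested genes rose. In 24 both starved libraries were above both fed ones, against 19.6% of all tested genes. In 1 both were below, against 23.0%. The median log2 fold change was 0.25 on the planned scale against −0.01 over all genes. Beside DDIT3 and DDIT4 the risers were CHAC1, STC2, PCK2, TRIB3 and BBC3. CHAC1 degrades glutathione, and its level went from 9.56 and 7.37 to 16.3 and 13.99 FPKM, a log2 fold change of 0.86. TRIB3, a pseudokinase that restrains ATF4 and AKT, went from 11.8 and 12.5 to 20.8 and 21.7 FPKM (log2 fold change 0.81), and STC2, a secreted glycoprotein, from 12.6 and 11.9 to 23.1 and 21.0 FPKM (0.85). PCK2 makes phosphoenolpyruvate inside mitochondria, a step that lets glucose-starved cells build glycolytic intermediates from amino acids; it went from 7.04 and 6.06 to 10.97 and 12.3 FPKM (0.83). BBC3, the death effector PUMA, had the smallest rise, from 13.0 and 12.4 to 19.3 and 16.8 FPKM (0.51, read-based limma adjusted p = 0.0352). BBC3 kept its call in 1 of the 4 fits without a library and CHAC1 in 3, having lost it without the second 20 mM library (read-based limma adjusted p = 0.347).

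The mRNAs of ATF4, of ATF3 and of the classical target ASNS did not pass the test. ATF4 mRNA stood at 149.6 and 162 FPKM with glucose and 180.4 and 181 FPKM without it, and ATF3, which ATF4 induces, at 14.4 and 13.9 against 18.1 and 16.4 FPKM. The starved libraries were the higher in both cases, but neither gene passed the test (log2 fold changes of 0.22 and 0.29, read-based limma adjusted p = 0.335 and 0.271). ASNS, asparagine synthetase and a standard ATF4 target, had a low counted level, at 1.54 and 1.08 FPKM with glucose and 1.78 and 2.05 FPKM without. Its change of 0.55 did not pass either (read-based limma adjusted p = 0.333). AC079781.5, on the same strand, covers 44.6% of the exon bases of ASNS, so both its level and its change are uncertain.

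Genes that import amino acids and charge tRNAs, many of them ATF4 targets, moved unevenly. Of 18 tested amino acid transporters 13 were higher, 3 rose and 0 fell (median 0.14), where 0.724% of all tested genes rose. SLC6A9, a glycine carrier, went from 2.23 and 2.27 to 4.24 and 3.33 FPKM. SLC7A11, the cystine importer that supplies glutathione synthesis, went from 3.93 and 3.49 to 4.99 and 6.58 FPKM. SLC38A2, a glutamine and alanine carrier that is far more abundant, went from 158 and 154 to 189.5 and 229 FPKM. These 3 rises had log2 fold changes of 0.76, 0.62 and 0.42, with read-based limma adjusted p of 0.0269, 0.0153 and 0.0290, and the calls of SLC7A11 and SLC38A2 were lost when the planned test ran on protein-coding genes. Of the 22 tRNA synthetase and scaffold genes, 12 were higher and 10 lower (median 0.04), and AARS, for alanine, was the 1 that rose, from 51.8 and 51.2 to 70.8 and 74.7 FPKM. SARS was at 30.5 and 31.7 against 38.7 and 40.3 FPKM, while RARS was at 48.4 and 53.5 against 42.1 and 42.3 FPKM, and neither passed the test. Among the 16 enzymes of serine synthesis and one-carbon metabolism, 7 were higher and 9 lower, and 0 were called by the read-based limma fit or the protein-coding test (5 at an unadjusted p under 0.05), with PHGDH at 10.8 and 10.8 against 13.3 and 13.1 FPKM.

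ER stress genes rose in a narrow set. Of 40 tested ER chaperones, folding enzymes and degradation factors, 26 were higher and 14 lower, and the median log2 fold change was 0.08. Among them 3 rose and 0 fell, where 0.724% of all tested genes rose. HSPA5 (ENSG00000044574, chromosome 9, 125234853 to 125241330, minus strand) encodes BiP, the main ER chaperone. It stood at 222 and 229 FPKM with glucose and at 316 and 384 FPKM without, a log2 fold change of 0.63 (SE 0.10, read-based limma adjusted p = 0.000471). HERPUD1, which helps to pull misfolded proteins out of the ER, had the largest rise of the list, from 9.30 and 11.4 to 16.6 and 21.9 FPKM (log2 fold change 0.88, read-based limma adjusted p = 0.000151). DNAJB9, a cochaperone of BiP, went from 5.02 and 5.76 to 8.60 and 8.04 FPKM (0.63). The second 0 mM library gave most of the list's shift: its median member stood 0.16 above the 20 mM mean and that of the first 0.01, on the log2(FPKM + 1) scale. SEL1L, a partner in ER-associated degradation, was at 6.47 and 5.85 against 7.43 and 9.25 FPKM and did not pass (read-based limma adjusted p = 0.0952). Of 52 tested genes of early secretory traffic and glycosylation 35 were lower and 17 higher, with a median of −0.10 and 0 calls by the read-based limma fit or the protein-coding test (6 at an unadjusted p under 0.05).

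Promoter sequences were read for the called stress, ER and MondoA genes, because elements for these pathways have known letters. The window runs from 250 bases before to 50 after the annotated start in RefSeq (GRCh38.p14), and it was available for 9050 tested genes and for 27305 genes in all. The RefSeq start need not be the outermost start of the gene model used for counting. Both strands were searched for the ATF4 element CARE (TGATGNAA), the ER stress elements ERSE (CCAAT and CCACG with 9 free bases between) and ERSE-II (ATTGG and CCACG with 1 free base between), and the E-box (CACGTG). The 4 windows below belong to genes that changed in opposite ways and hold such elements, shown in capitals. Each is written 5′ to 3′ along its gene: HSPA5 at chr9:125241294-125241593 (minus strand), HERPUD1 at chr16:56931892-56932191 (plus), CHAC1 at chr15:40953221-40953520 (plus) and ARRDC4 at chr15:97960453-97960752 (plus).
HSPA5: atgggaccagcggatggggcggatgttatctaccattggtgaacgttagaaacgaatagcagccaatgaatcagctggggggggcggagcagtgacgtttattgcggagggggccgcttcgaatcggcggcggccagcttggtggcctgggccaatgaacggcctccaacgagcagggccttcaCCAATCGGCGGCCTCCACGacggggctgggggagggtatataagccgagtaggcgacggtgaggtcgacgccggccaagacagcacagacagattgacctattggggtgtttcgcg
HERPUD1: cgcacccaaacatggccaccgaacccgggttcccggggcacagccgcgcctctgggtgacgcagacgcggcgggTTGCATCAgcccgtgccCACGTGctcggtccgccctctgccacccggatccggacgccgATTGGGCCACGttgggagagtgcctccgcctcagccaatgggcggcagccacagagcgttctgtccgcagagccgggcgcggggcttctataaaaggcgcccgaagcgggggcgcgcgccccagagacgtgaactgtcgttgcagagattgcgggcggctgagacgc
CHAC1: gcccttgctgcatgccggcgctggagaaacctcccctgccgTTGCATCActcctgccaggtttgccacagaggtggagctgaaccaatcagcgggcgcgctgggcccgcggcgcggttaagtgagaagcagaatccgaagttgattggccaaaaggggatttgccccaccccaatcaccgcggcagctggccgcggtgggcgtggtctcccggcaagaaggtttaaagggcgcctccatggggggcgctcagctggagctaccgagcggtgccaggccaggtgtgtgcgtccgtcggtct
ARRDC4: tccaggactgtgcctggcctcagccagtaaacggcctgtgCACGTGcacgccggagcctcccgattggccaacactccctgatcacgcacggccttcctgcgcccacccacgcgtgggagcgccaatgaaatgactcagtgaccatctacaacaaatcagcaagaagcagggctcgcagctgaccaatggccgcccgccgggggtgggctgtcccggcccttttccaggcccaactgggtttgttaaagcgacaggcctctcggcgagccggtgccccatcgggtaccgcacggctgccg

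HSPA5 holds an ERSE 66 bases before the start, HERPUD1 a CARE at 176, an E-box at 159 and an ERSE-II at 117 bases before it, CHAC1 a CARE at 209 and ARRDC4 an E-box at 210. Both CARE matches are on the reverse strand, so the capitals show the reverse complement of the element. BBC3 holds an E-box 232 bases before its start and DNAJB9 holds E-boxes at 73 and 49. No searched element of these kinds is in the windows of DDIT3, DDIT4, TRIB3, STC2 or PCK2, which says only that these letters are not in this stretch. ERSE was found in 7 of 37 ER promoters (18.9%) and in 0.144% of those of tested genes. The 10 ER genes with an ERSE or ERSE-II had a median read-based log2 fold change of 0.13, from −0.11 to 0.88, and the 27 without of 0.07. CARE was found in 4 of 30 stress promoters (13.3%), those of ASNS, ATF3, CHAC1 and PPP1R15B, against 1.49% of tested and 3.67% of all promoters. The E-box was found in 4 of 10 MondoA and ChREBP promoters and in 10.4% of tested promoters. Paired E-boxes were found in 0 of these 10, and the ARRDC4 window holds a single E-box.

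ARRDC4 fell; it passed the filter through the 20 mM libraries alone, so it had to be lower without glucose. The gene (ENSG00000140450, chromosome 15, 97960698 to 97973838) encodes an arrestin-like protein that limits glucose uptake. Its level was 1.82 and 1.63 FPKM with glucose, from 124 and 118 reads, and 0.297 and 0.446 FPKM without, from 25 and 28 reads. Both starved libraries were at a small share of the fed ones (log2 fold change −2.26, SE 0.40, read-based limma adjusted p = 0.00145). Of the 16 tested MondoA and ChREBP genes it was the only one called by the read-based limma fit, and 9 were lower and 7 higher, with a median of −0.01. TXNIP, which responds to glucose through MondoA in many cells, had 0 reads in each library, where 3 reads would allow at most 0.0537 FPKM, so no change could be seen in it.

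**Figure D2:**
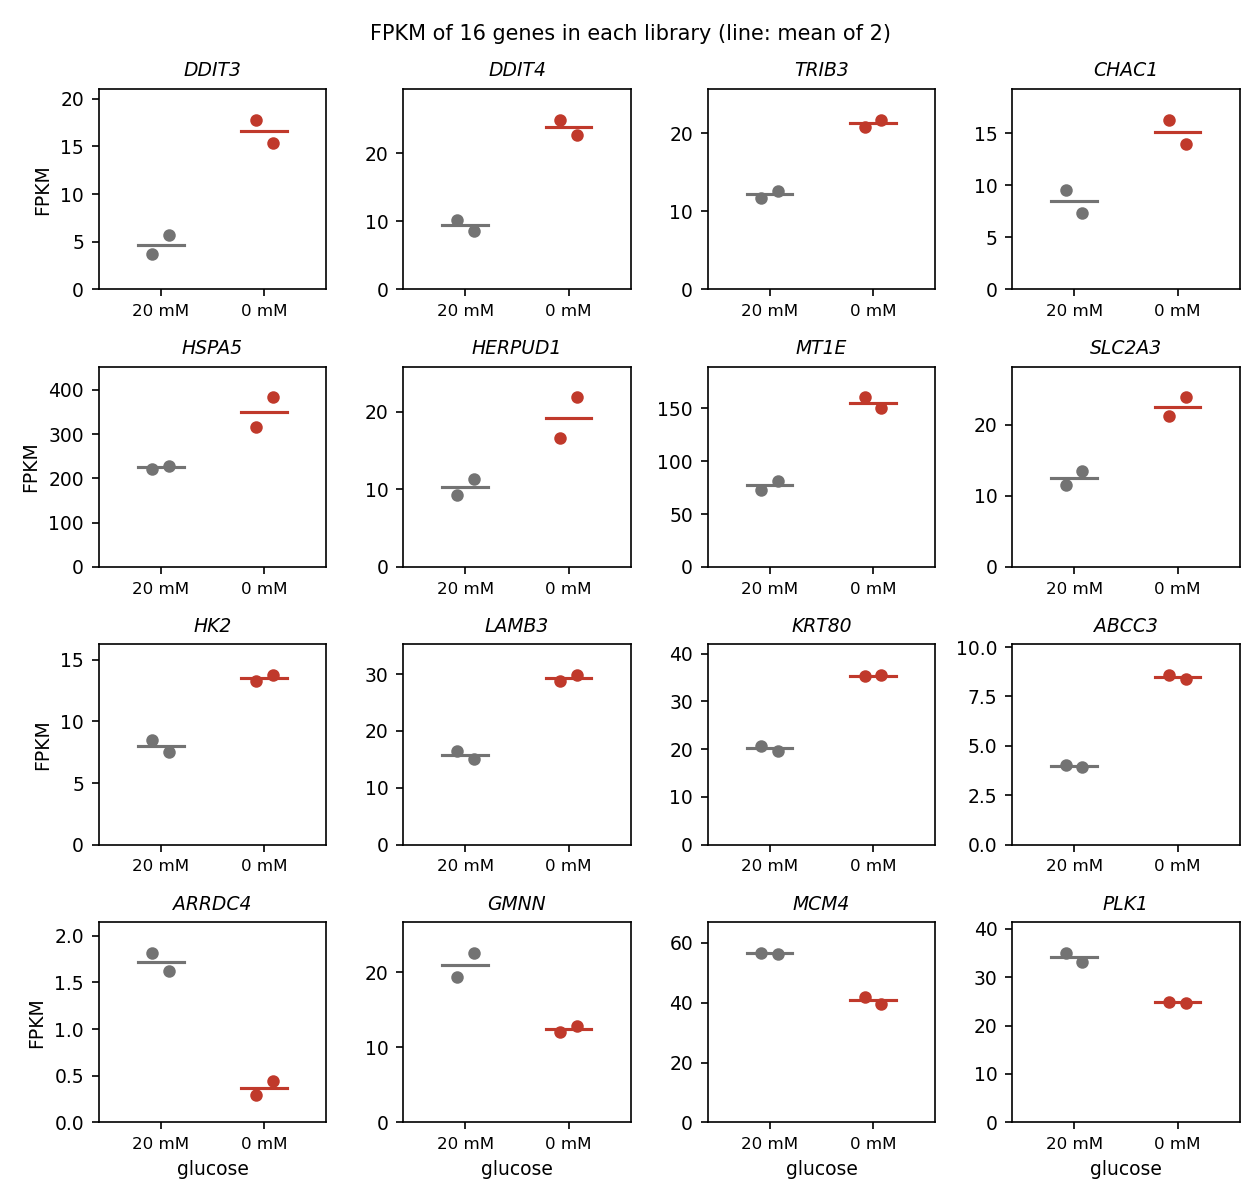
FPKM of 16 genes in each of the 4 libraries, 20 mM glucose in grey and 0 mM in red, with a line at the mean of each pair and all axes from 0. In all 16 panels both libraries of one condition lie above both of the other; ARRDC4, GMNN, MCM4 and PLK1 are lower without glucose and the rest higher.

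SLC2A3, HK2 and ALDOC rose, while the other glucose transporter and glycolysis genes that passed the filter were not called. SLC2A3 encodes the high-affinity transporter GLUT3, and its level went from 11.5 and 13.4 to 21.1 and 23.8 FPKM (log2 fold change 0.85, SE 0.11, read-based limma adjusted p = 2.78e-05). HK2, the hexokinase that traps glucose in the cell, went from 8.51 and 7.54 to 13.3 and 13.8 FPKM (0.75), and ALDOC, an aldolase, from 7.66 and 8.83 to 12.6 and 12.9 FPKM (0.63). These were the 3 rises among 35 tested transporters and glycolytic genes, where 0.724% of all tested genes rose. Of the 35, 18 were higher and 17 lower, with a median of 0.01. SLC2A1, the more abundant transporter GLUT1, was at 128 and 124 against 156 and 158 FPKM and missed the threshold (log2 fold change 0.32, read-based limma adjusted p = 0.0989). PFKFB2 and PFKFB4, which set the activator of phosphofructokinase, had log2 fold changes of 0.47 each and did not pass.

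Calls in other routes of carbon were single genes, where 0.724% of all tested genes rose and 0.352% fell. UPP1, uridine phosphorylase, releases ribose phosphate from uridine; it went from 13.3 and 12.04 to 23.1 and 24.3 FPKM (log2 fold change 0.90, SE 0.11, read-based limma adjusted p = 1.49e-05), the 1 call among 17 pyrimidine genes. H6PD, which starts the pentose phosphate pathway inside the ER and was named after its values were seen, went from 3.69 and 3.48 to 5.56 and 6.73 FPKM (0.76). OGA, which removes O-linked N-acetylglucosamine from proteins, fell from 45.5 and 46.9 to 31.5 and 37.3 FPKM (−0.43, read-based limma adjusted p = 0.0266), the 1 call among 36 genes of the pentose phosphate, hexosamine and nucleotide sugar pathways. It was called in 1 of the 4 fits without a library and lost its call in the protein-coding test. Of those 36 genes, a list that does not hold H6PD, 22 were lower and 14 higher, with a median of −0.06. In 15 of them both starved libraries were below both fed ones, against 23.0% of all tested genes. In 6 both were above, against 19.6%. PCK2 was the 1 call among 39 genes of the TCA cycle, gluconeogenesis and fatty acid oxidation, of which 17 were higher and 22 lower. Cholesterol synthesis and uptake genes were higher in 19 of 27 cases with a median of 0.08 and 0 calls by the read-based limma fit or the protein-coding test (5 at an unadjusted p under 0.05), HMGCS1 being at 28.0 and 27.2 against 33.0 and 37.6 FPKM. IRS2, the adaptor that couples insulin receptors to growth signalling, went from 7.79 and 6.64 to 11.9 and 13.2 FPKM (log2 fold change 0.80, read-based limma adjusted p = 0.000146), and IGFBP6, which binds insulin-like growth factor 2, from 41.0 and 43.3 to 63.7 and 56.1 FPKM (0.51).

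Genes of DNA replication were lower almost without exception, each by a small amount. Of 56 tested members 54 were lower and 2 higher, and 9 fell and 0 rose, where 0.352% of all tested genes fell. In 50 both starved libraries were below both fed ones, which held for 23.0% of all tested genes. The list's median was −0.28, and the median member stood at −0.28 in both starved libraries relative to the fed mean. At an unadjusted p under 0.05 there were 38 of the 56, against 1870 of all 14506 genes. GMNN encodes geminin, which blocks a second round of origin licensing; it fell from 19.3 and 22.6 to 11.97 and 12.8 FPKM (log2 fold change −0.76, SE 0.13, read-based limma adjusted p = 0.00125). ORC1, of the origin recognition complex, fell from 20.2 and 18.2 to 13.4 and 12.4 FPKM, and MCM10, which helps origins to fire, from 14.8 and 14.8 to 9.25 and 10.3 FPKM. MCM4, a subunit of the replicative helicase, fell from 56.8 and 56.3 to 42.1 and 39.7 FPKM (−0.47). DTL, a substrate receptor of a ubiquitin ligase, GINS2, a helicase component, and FEN1, PCNA and RRM2 were the other 5 that fell. PRIM1, a primase subunit, was an exception, at 10.8 and 11.04 against 11.8 and 12.7 FPKM, and did not pass the test. Outside the list ASF1B, a chaperone that hands histones to the replication fork, fell from 43.6 and 43.2 to 29.7 and 25.8 FPKM (−0.64).

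Mitotic genes showed the same picture. Of 57 tested members 55 were lower and 2 higher, and the median was −0.33. Among them 12 fell and 0 rose, where 0.352% of all tested genes fell. In 49 the conditions did not overlap and the starved libraries were the lower, which held for 23.0% of all tested genes. At an unadjusted p under 0.05 there were 47 of the 57. SPC25, a kinetochore component, fell most, from 15.5 and 14.9 to 8.401 and 8.98 FPKM (log2 fold change −0.81, SE 0.15, read-based limma adjusted p = 0.00312). PLK1, the kinase that drives entry into and exit from mitosis, fell from 35.1 and 33.2 to 25.0 and 24.6 FPKM (−0.46), and the checkpoint kinases BUB1 and TTK fell by 0.50 and 0.54 on the log2 scale. NDC80, AURKB, KIF20A, CCNA2, KIF23, CDCA5, CDK1 and CCNB1 were the other 8. SPC24, which pairs with SPC25 at the kinetochore, went the other way at 6.38 and 7.64 against 8.39 and 7.47 FPKM, with overlap, and CDC25B, a phosphatase that activates CDK1, was at 55.0 and 54.6 against 66.5 and 71.8 FPKM (read-based limma adjusted p = 0.0995). Of all 21 calls in these cell cycle lists GMNN was the 1 still called in 3 of the 4 fits without a library, having lost its call without the second 20 mM library. The others were called in 2 or 1, and only in fits that left out a 0 mM library. The cyclins and inhibitors of G1 were split, 11 higher and 11 lower with 0 calls by the read-based limma fit or the protein-coding test (5 at an unadjusted p under 0.05), and CDKN1A, which encodes the inhibitor p21, was at 108 and 105 against 120 and 111 FPKM.

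Replication and mitosis promoters carry different elements, and 2 of each that fell and hold the element are shown. These genes were picked after their values were seen: of the 8 called replication genes with a window 3 hold an E2F match and 5 do not, and of the 11 called mitosis genes with a window 5 hold a CHR match and 6 do not. Capitals mark an E2F match (TTTGGCGC, TTTCCCGC or TTTCGCGC, on either strand) in DTL at chr1:212035498-212035797 (plus) and GINS2 at chr16:85688905-85689204 (minus), and a CHR match, the cell cycle genes homology region (TTTGAA, on either strand), in PLK1 at chr16:23678639-23678938 (plus) and SPC25 at chr2:168890381-168890680 (minus). The windows and the build are as above, from RefSeq.
DTL: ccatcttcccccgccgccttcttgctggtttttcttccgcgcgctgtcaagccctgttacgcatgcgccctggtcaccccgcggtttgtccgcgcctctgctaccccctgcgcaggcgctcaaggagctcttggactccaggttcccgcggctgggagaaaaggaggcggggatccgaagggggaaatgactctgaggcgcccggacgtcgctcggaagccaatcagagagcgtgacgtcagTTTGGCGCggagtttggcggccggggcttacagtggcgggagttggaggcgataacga
GINS2: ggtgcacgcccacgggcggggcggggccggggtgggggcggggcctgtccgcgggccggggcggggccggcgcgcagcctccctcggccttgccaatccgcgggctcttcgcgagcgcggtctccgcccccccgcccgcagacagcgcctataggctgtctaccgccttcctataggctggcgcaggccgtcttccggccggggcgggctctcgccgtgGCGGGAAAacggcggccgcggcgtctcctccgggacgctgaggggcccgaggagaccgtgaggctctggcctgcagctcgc
PLK1: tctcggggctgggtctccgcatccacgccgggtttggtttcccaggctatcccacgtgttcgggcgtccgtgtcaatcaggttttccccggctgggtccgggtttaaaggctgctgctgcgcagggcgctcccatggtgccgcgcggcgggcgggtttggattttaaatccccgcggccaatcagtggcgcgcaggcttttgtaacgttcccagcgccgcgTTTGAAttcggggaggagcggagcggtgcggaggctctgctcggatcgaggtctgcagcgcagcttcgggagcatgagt
SPC25: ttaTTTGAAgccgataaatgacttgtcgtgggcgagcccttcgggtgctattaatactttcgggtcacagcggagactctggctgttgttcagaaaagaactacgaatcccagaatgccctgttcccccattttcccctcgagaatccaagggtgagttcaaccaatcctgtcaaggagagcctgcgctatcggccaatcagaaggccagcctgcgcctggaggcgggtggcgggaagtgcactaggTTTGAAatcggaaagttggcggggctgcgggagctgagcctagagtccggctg

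The E2F match lies 8 bases before the start in DTL and 31 before it, on the reverse strand, in GINS2, and the CHR match 29 before it in PLK1 and 247 and 3 before it in SPC25. E2F letters were found in 23 of 47 replication promoters (48.9%), in 6.00% of mitosis promoters and in 4.84% of all tested ones. CHR letters were found in 34 of 50 mitosis promoters (68.0%), in 2.13% of replication promoters, in 9.01% of all tested ones and in 15.4% of all promoters. Matches also clustered near the start: 67.4% of the 43 CHR matches in mitosis promoters lay within 50 bases of it, against 28.4% in tested promoters at large, and 62.1% of the 29 E2F matches in replication promoters, against 32.1%. The median fall was not larger in genes with the letters. The 34 mitosis genes with CHR letters were all lower, with a median read-based log2 fold change of −0.34, and 14 of the 16 without were lower, with a median of −0.40. For replication the medians were −0.24 with E2F letters (23 genes) and −0.30 without (24 genes).

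**Figure D3:**
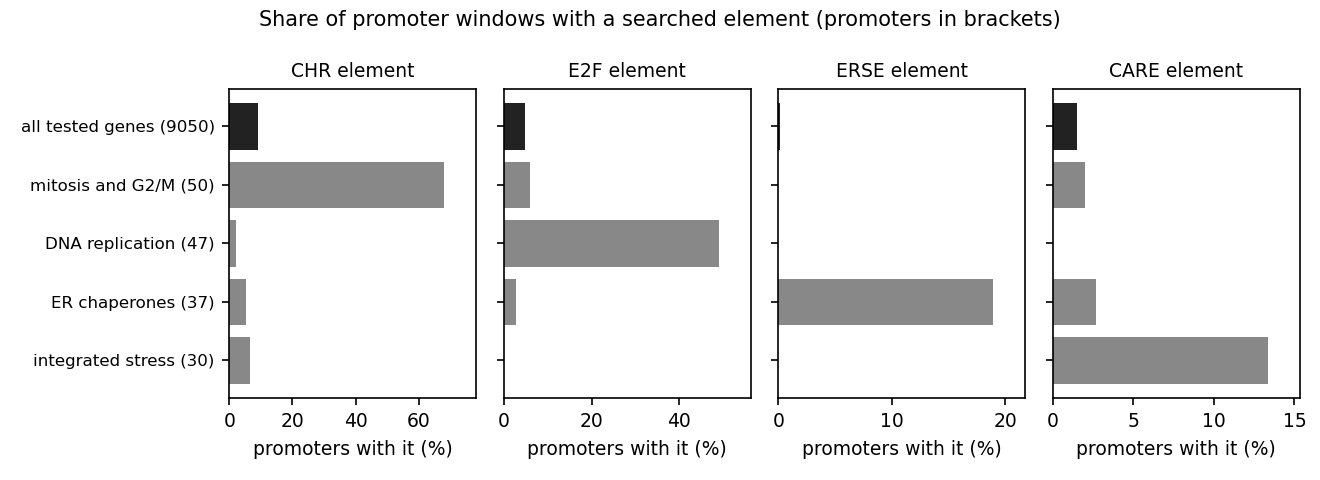
Bars give the percent of promoter windows that hold each element, for all tested genes and for 4 gene lists, with axes from 0. CHR letters are most frequent in the mitosis list (68.0%), E2F letters in the replication list (48.9%), ERSE in the ER list (18.9%) and CARE in the integrated stress list (13.3%).

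Most heat shock chaperone genes were lower without glucose, and a few of them passed the test. Of 28 tested members 26 were lower and 2 higher, and the median was −0.22. Among them 3 fell and 0 rose, where 0.352% of all tested genes fell. In 21 both starved libraries were below both fed ones, which held for 23.0% of all tested genes. DNAJA1, a cochaperone of HSP70, fell from 104 and 113 to 73.8 and 76.0 FPKM (log2 fold change −0.53, SE 0.10, read-based limma adjusted p = 0.00260). BAG3, which links HSP70 to autophagy, fell from 47.3 and 43.2 to 30.8 and 30.6 FPKM (−0.56), and HSPH1, a nucleotide exchange factor of HSP70, from 35.7 and 36.3 to 24.8 and 28.3 FPKM (−0.44). The constitutive HSP70 gene HSPA8 was at 471 and 523 against 394 and 411 FPKM and HSPB1, a small heat shock protein that MK2 phosphorylates, at 289 and 295 against 249 and 226 FPKM. Both were lower in each starved library and neither passed the test (read-based limma adjusted p = 0.128 and 0.142). The 3 calls held in the 2 fits that left out a 0 mM library and were lost in the 2 that left out a 20 mM library.

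**Figure D4:**
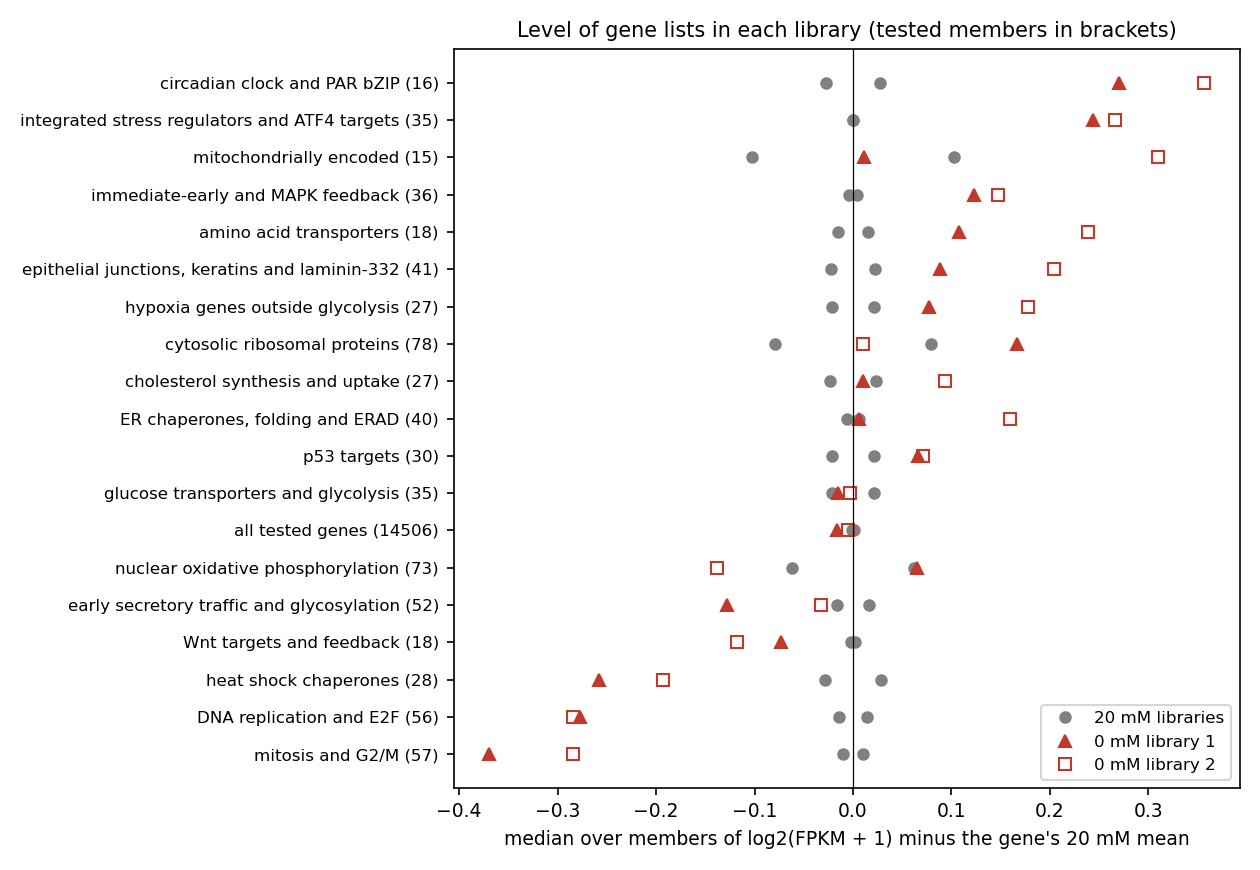
For each gene list the median over its tested members of log2(FPKM + 1) minus the gene's mean at 20 mM, per library; grey circles are the 20 mM libraries, filled triangles and open squares the first and second 0 mM library. Both 0 mM libraries lie left of −0.19 for the mitosis, replication and heat shock lists and right of 0.24 for the integrated stress and circadian lists, and they differ from each other for the ribosomal, oxidative phosphorylation and mitochondrially encoded lists.

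Metallothionein genes, which encode small zinc-binding proteins, rose in 3 of the 4 cases that passed the filter, where 0.724% of all tested genes rose. MT1G, MT1H and MT1M had 0 reads in all 4 libraries. MT1E was at 72.9 and 81.4 FPKM with glucose and 160.4 and 149.8 FPKM without, MT2A at 171 and 227 against 293 and 399.7 FPKM, and MT1X at 3.54 and 5.10 against 10.6 and 10.97 FPKM. The starved libraries were higher in each case, with log2 fold changes of 1.01, 0.79 and 1.33 and read-based limma adjusted p of 1.72e-06, 0.000315 and 0.000259. With the 4 MAPKAPK2 hairpin libraries added to the fit MT1E kept its call (read-based limma adjusted p = 0.0186), and MT2A and MT1X did not (0.197 and 0.305). MT1F, the fourth listed metallothionein that passed the filter, was at 1.68 and 1.55 against 3.17 and 2.54 FPKM (0.84) and did not pass. The genes sit in a cluster on chromosome 16 and are near-identical copies, so reads may be shared between them. The zinc exporter SLC30A1, which answers to the same zinc sensor, was at 6.86 and 7.21 against 8.04 and 10.2 FPKM (read-based limma adjusted p = 0.215). The other 7 listed genes of zinc transport and sensing that passed the filter were not called either.

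A minority of epithelial adhesion and keratin genes rose. Of 41 tested members 31 were higher and 10 lower, and the median was 0.14. Among them 8 rose and 0 fell, where 0.724% of all tested genes rose. LAMB3, the beta chain of laminin-332 in the basement membrane, went from 16.5 and 15.0 to 28.8 and 29.9 FPKM (log2 fold change 0.90, SE 0.11, read-based limma adjusted p = 9.23e-06), and ITGB4, a subunit of its receptor, from 50.9 and 46.5 to 69.1 and 71.5 FPKM (0.53). KRT80 went from 20.6 and 19.7 to 35.3 and 35.5 FPKM (0.81) and KRT7, a simple-epithelial keratin, from 40.4 and 41.2 to 70.8 and 67.1 FPKM (0.76). AHNAK2, a large scaffold protein, went from 12.7 and 10.95 to 20.7 and 22.0 FPKM (0.85). ELF3, an epithelial transcription factor, and the hair keratins KRT81 and KRT86 were the other 3; KRT86 was low, at 0.974 and 0.657 against 2.42 and 2.33 FPKM, it passed the filter through the starved libraries alone and so had to be higher in them, and the 2 hair keratins are close copies of each other. The abundant keratins of the marker set stayed nearer to their fed level: KRT8 was at 489 and 498 against 601 and 580.1 FPKM and KRT18 at 285 and 300.2 against 362 and 375 FPKM, and neither passed (read-based limma adjusted p = 0.202 and 0.0868). EPCAM was at 108 and 116.4 against 95.4 and 97.5 FPKM and did not pass.

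Signalling and hypoxia genes added a handful of rises. The share of all tested genes that rose, 0.724%, stands beside each count in this paragraph. Of 36 immediate-early and MAP kinase feedback genes 28 were higher and 8 lower, and 3 rose: DUSP5 from 59.4 and 59.6 to 83.4 and 90.9 FPKM, DUSP4 from 46.7 and 44.4 to 60.3 and 64.4 FPKM, and KLF4 from 12.9 and 12.6 to 17.1 and 18.6 FPKM. DUSP4 and DUSP5 remove phosphate from the ERK kinases, and KLF4 is a differentiation factor of the gut; their log2 fold changes were 0.45, 0.55 and 0.48. Of 27 hypoxia genes outside glycolysis 20 were higher and 7 lower, and 3 rose, NDRG1 and BHLHE40 among them. NDRG1, a stress-induced growth suppressor, went from 11.8 and 12.2 to 18.8 and 21.2 FPKM (0.74, read-based limma adjusted p = 8.93e-05). BHLHE40, a repressor that also belongs to the clock, went from 22.8 and 23.7 to 32.2 and 39.5 FPKM. PLAU, a secreted protease that activates plasminogen, went from 6.85 and 6.55 to 10.1 and 12.1 FPKM (0.71), with 31.1% of its exon bases under C10orf55 on the opposite strand. AXL, a receptor tyrosine kinase, was the 1 call among 30 YAP, TEAD and SRF targets, from 30.8 and 27.9 to 40.2 and 42.7 FPKM.

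Clock output genes had a median log2 fold change of 0.28 on the planned scale, with 13 of 16 higher and 3 lower. Among them 3 rose and 0 fell, where 0.724% of all tested genes rose. DBP, a transcription factor that the clock drives directly, went from 3.16 and 3.48 to 6.99 and 6.50 FPKM (log2 fold change 1.02, SE 0.14, read-based limma adjusted p = 3.67e-05). PER1, a repressor of the clock, went from 16.7 and 15.6 to 22.8 and 24.7 FPKM (0.56), and BHLHE40 was the third. NR1D2, which encodes the clock repressor REV-ERB beta, was at 24.8 and 23.8 against 29.5 and 35.0 FPKM (read-based limma adjusted p = 0.0604) and did not pass. Cells were sampled at 1 time, so no phase can be read from these levels.

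Several of the larger changes are given here gene by gene. ABCC3 exports conjugated organic anions, and its level was 4.05 and 3.94 against 8.59 and 8.397 FPKM (log2 fold change 1.09, SE 0.12, read-based limma adjusted p = 1.75e-06). It was the 1 call among 8 tested carrier and export pumps, where 0.724% of all tested genes rose. Of the 8 pumps 7 were higher and 1 lower, with a median of 0.09. In 5 of the 8 both starved libraries were above both fed ones, against 19.6% of all tested genes. ARTN, a secreted ligand of the GDNF family, was at 7.87 and 6.93 against 19.1 and 13.2 FPKM (1.12), higher in both starved libraries though these differ from each other. PIP5KL1, a lipid kinase-like gene, was at 3.24 and 3.19 against 6.55 and 5.73 FPKM (0.94). Among genes that fell outside the cell cycle, NRGN was at 18.0 and 15.6 against 10.6 and 8.17 FPKM (−0.82), AMH, a hormone of the TGF-beta family, at 24.2 and 23.3 against 16.2 and 13.4 FPKM (−0.68), and PRAME, a cancer-testis antigen, at 10.9 and 12.3 against 7.81 and 7.63 FPKM (−0.59). ERVMER34-1, the envelope gene of an ancient retroviral insertion, and UGT8, a galactosyltransferase of lipid synthesis, fell by 0.68 and 0.61 on the log2 scale.

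RNAs of the mitochondrial genome moved in both directions. Of 15 tested ribosomal RNAs and mRNAs encoded there 11 were higher and 4 lower, and the list's median of 0.21 hid a gap between libraries, with the median member 0.01 above the fed mean in the first and 0.31 in the second starved library. MT-RNR1, the small ribosomal RNA, fell from 2499.9 and 3025 to 1828 and 2039 FPKM (log2 fold change −0.51, read-based limma adjusted p = 0.00617). MT-ND6, the 1 mRNA encoded on the light strand, rose from 1426 and 1775 to 2283 and 2640.2 FPKM (0.63, read-based limma adjusted p = 0.000849), and MT-ATP8 from 354 and 274 to 382 and 575 FPKM (0.58). MT-TE, the tRNA gene next to MT-ND6 on the same strand, fell from 204 and 283 to 82.0 and 136 FPKM (−1.24); at 69 bases such genes are shorter than most fragments, and their counts depend on size selection. MT-ND4L was at 3662 and 3814 against 3806 and 7480.4 FPKM, where the second starved library alone stood apart. Nuclear genes of oxidative phosphorylation were split, 31 higher and 42 lower with 0 calls by the read-based limma fit or the protein-coding test (4 at an unadjusted p under 0.05). Cytosolic ribosomal protein genes were higher in 63 of 78 cases, again with 0 calls by both (9 at an unadjusted p under 0.05), their median member at 0.17 in the first and 0.01 in the second starved library.

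Long non-coding RNAs and several other gene types leaned upward while protein-coding genes leaned slightly down. Of 3490 genes other than protein-coding 22.2% had both starved libraries above both fed ones and 13.2% both below. For transcribed unprocessed pseudogenes the shares were 29.3% and 10.2%, and for mitochondrial tRNAs 9.52% and 28.6%. The shares also differed with level, at 21.2% and 18.5% from 0 to 5 FPKM and 15.5% and 33.9% from 20 to 100 FPKM. Whether level accounts for the lean was not tested. Of 460 tested long intergenic RNAs 113 (24.6%) had both starved libraries above both fed ones and 47 (10.2%) both below. Of 727 antisense RNAs the counts were 189 (26.0%) and 83 (11.4%), and of 11016 protein-coding genes 2074 (18.8%) and 2882 (26.2%). The median read-based log2 fold changes were 0.10 for long intergenic RNAs, 0.08 for antisense RNAs and −0.03 for protein-coding genes. Antisense levels are uncertain, as the sources used here do not give the strand setting. The lean was larger in the first starved library, where the median antisense RNA stood 0.12 and the median lincRNA 0.11 above the fed mean, than in the second, at 0.04 and 0.06. NEAT1, the scaffold of nuclear paraspeckles, rose from 17.3 and 18.3 to 27.5 and 24.6 FPKM (log2 fold change 0.55, read-based limma adjusted p = 0.00158). The lincRNA AC105460.1 rose from 56.3 and 68.1 to 87.9 and 93.4 FPKM (0.54), and AC004057.1, a transcribed pseudogene, from 34.1 and 27.0 to 57.6 and 132 FPKM (1.49), with the second starved library far above the first. NSFP1 went from 15 and 13 reads to 144 and 101, a log2 fold change of 3.03, and GTF2IP1 from 176 and 248 reads to 597 and 465. Both are near-identical copies of NSF and GTF2I, and MTCO1P12 is a nuclear copy of mitochondrial DNA, so their reads may belong to the parent genes. NSF was at 12.3 and 12.3 against 10.8 and 11.3 FPKM and GTF2I at 7.18 and 6.66 against 7.07 and 7.82 FPKM. LURAP1L went from 12 and 28 reads to 101 and 117. It, NSFP1, KRT86, TNXB and ZNF333 were the 5 genes called after passing the filter through the starved libraries alone, so they had to be higher there. LURAP1L, NSFP1, GTF2IP1, TNXB and ZNF333 were named after their values were seen.

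**Figure D5:**
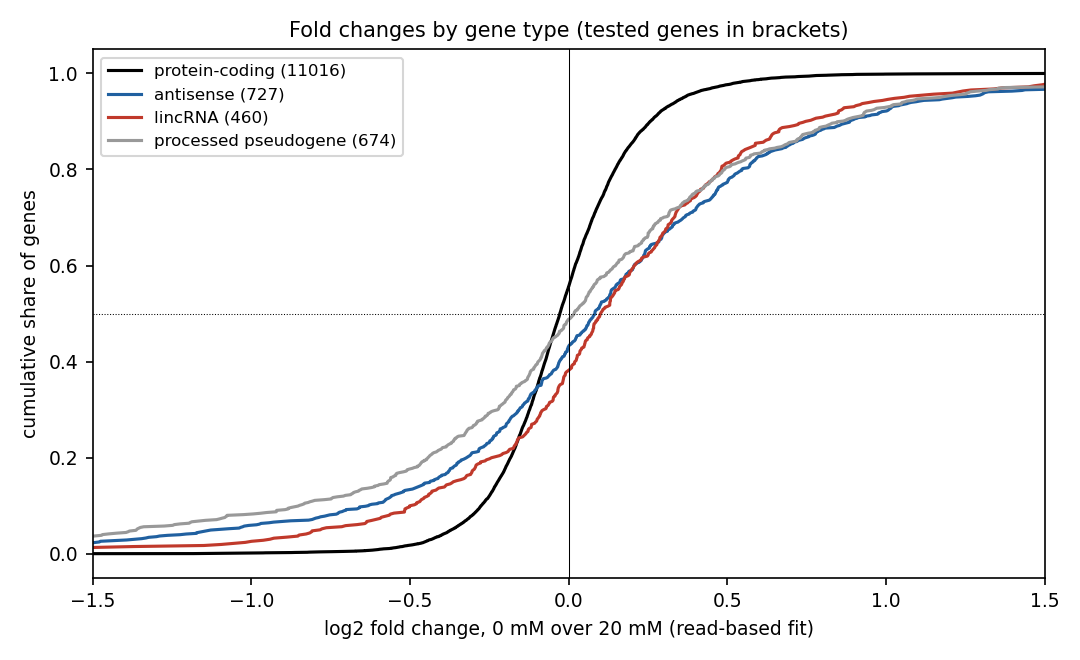
Cumulative share of genes against the read-based log2 fold change for 4 gene types. The protein-coding curve (11016 genes) is the steepest, with a median of −0.03, and the antisense and lincRNA curves are wider: they lie to its left among the larger falls and to its right around and above 0, with medians of 0.08 and 0.10.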

How the data were processed

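Total RNA was reverse transcribed with random hexamers, per the labels' protocols, which name a stranded and an unstranded library type without saying which was used. DESeq2 1.20.0, HISAT2 2.0.5 and featureCounts 1.5.0-p3 are listed, with no role for each, per the submitters' processing notes. The authors deposited FPKM for 58735 genes, whose identifiers, positions and lengths match GENCODE 29 on GRCh38. In each library every FPKM times the gene length was a whole multiple of what 1 read is worth, which returned the reads per gene. The tolerance was 0.001 of that step, and it widened in proportion to the reads for genes with many reads. Groups came from the labels.

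The planned test was limma 3.58.1 (R 4.3.3) with an intensity trend on log2(FPKM + 1), for the 4 libraries and the genes at 1 FPKM or more in at least 2 of them; fold changes on this scale understate those of low genes. The read-based fit was limma voom on the recovered reads, with the library sizes behind the FPKM. It was planned as a second test, and the named genes come from it because the first called 0. Both used a Benjamini-Hochberg adjusted p under 0.05 over all tested genes, and the protein-coding test is the planned test on those genes alone. Both fits were tested on simulated data. Gene lists are described by counts and medians. The members and lists were chosen with earlier results of these data known.

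Named genes were, for each direction, up to 12 protein-coding and 4 non-coding genes with the largest called change, at 5 FPKM or more in the higher group, up to 4 members of each list with the smallest p, a few fixed genes, and the genes whose replicates differed most. ATF3, ATF4, HSPA8, PFKFB4, MT1F, CDC25B, SPC24, PRIM1, CDKN1A, H6PD, C1orf116, KRT86, LURAP1L, NSFP1, GTF2IP1 and the parents of these pseudogenes, the partner MARS and the members that complete a count were named after their values were seen. Not every gene that the rule takes is reported here. Of the 156 called genes, 67 share some exon bases with another gene and 9 over 20%; as the sources used here do not give the strand setting, the levels of these genes are uncertain, as are those of near-identical copies. Alternatives concerned the libraries fitted, the pseudocount, the filter, the scaling, the gene set, the variance model, the replicate block and each library left out.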

Additional observations from a re-analysis of the deposited data

How the results depend on the processing

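The planned count of 0 genes became 156 with the read-based fit, 26 with that fit over all 8 libraries, 19 at a minimum of 5 FPKM, 156 with protein-coding genes alone and 170 with both of these last choices. It was 0 with all 8 libraries, a pseudocount of 0.1, no filter, quantile or median-of-ratios scaling, no intensity trend, the replicate block and each library left out. The other settings of the read-based fit, and the 170, were chosen after seeing the data. Its count of 156 (105 up, 51 down) was 26 (23 and 3) with all 8 libraries, 263 (107 down) with protein-coding genes, 262 (159 and 103) without the filter, and 103 (26 down) with quantile scaling. Without one library it ran from 37 (30 up, 7 down, without the second 20 mM library) to 681 (329 down, without the second 0 mM library), and the rises reached 377 without the first 0 mM library. Replicates differed by more than counting error (chi-square per gene 5.58 at 20 mM and 10.4 at 0 mM), and depth limits genes with few reads, such as ARRDC4 with 25 and 28 at 0 mM. The same-numbered libraries did not deviate together (r = −0.04 across genes), and the labels tie them to no shared culture; with the replicate block the read-based fit called 211 genes, the 156 among them.

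All 156 kept their direction wherever they were fitted. This was largely fixed beforehand, since in all 156 both libraries of one condition stood above both of the other. Of 42 list medians 15 changed sign in some setting, among them the glycolysis list (−0.04 to 0.04), and the medians ran from 0.23 to 0.31 for the integrated stress list, 0.01 to 0.16 for the ER list, −0.32 to −0.26 for replication, −0.38 to −0.28 for mitosis and −0.28 to −0.19 for heat shock.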

Other observations

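Some lists gave no read-based call but held a gene past the protein-coding test. SP5, a transcription factor that Wnt signalling induces, was at 2.90 and 2.81 FPKM with glucose and 1.55 and 1.196 FPKM without (log2 fold change −1.03). The read-based limma adjusted p was 0.119 and that of the protein-coding limma test 0.00897. Of 18 tested Wnt targets 13 were lower and 5 higher, with a median of −0.11. Of 5 tested mesenchymal genes 3 were higher and 2 lower, with a median of 0.09, and the protein-coding limma test called SNAI1, a repressor of epithelial genes, which was at 9.40 and 9.13 against 6.99 and 5.85 FPKM. Of 9 tested histone genes 4 were higher and 5 lower, with a median of −0.08, and that test called 1 in each direction. HIST1H2BK was at 60.3 and 60.3 against 42.5 and 42.2 FPKM, and HIST2H2AC at 0.920 and 1.30 against 2.73 and 2.33 FPKM. The read-based limma fit called none of SNAI1, HIST1H2BK and HIST2H2AC. Interferon-stimulated and antigen processing genes were lower in 19 of 26 cases with a median of −0.07, and 0 of them were called by the read-based limma fit or the protein-coding test (2 at an unadjusted p under 0.05).

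Replicates disagreed most for a handful of genes, which were named for that reason. With glucose, EIF3C, a translation initiation subunit with a near-identical copy, was at 9.27 and 2.10 FPKM, and SMN1, which also has a near-identical copy, at 9.15 and 22.5 FPKM. HIGD1A was at 14.3 and 25.0 FPKM, SMIM26 at 7.62 and 13.7 FPKM and TMSB15A at 4.36 and 8.12 FPKM. Without glucose, the mitochondrial protein genes ATP5ME, MRPL12 and COX8A stood at 20.5 and 8.28, 56.4 and 28.6, and 167 and 91.4 FPKM, the first library being the higher in each, and NT5C at 23.7 and 12.1 FPKM. Exons of another gene cover 61.6% of the exon bases of ATP5ME, 68.2% of those of MRPL12, 60.7% of those of NT5C and 34.5% of those of COX8A.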
